A study of Mus musculus with 18 samples.

Results

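Ppara, Ppargc1a and Ucp2 encode a fatty acid receptor, its coactivator and a mitochondrial carrier, and their transcripts were followed in mouse liver after a single statin dose. They were chosen by probe name on a dedicated cDNA array: Nr1c1, an older symbol of Ppara, was 1 probe, Ppargc1a had 2 probes (written Ppargc1 and Ppargc1a on the array and called the first and the second probe here), and Ucp-2 was 1 probe. These 4 probes for 3 genes stood among 289 gene probes under 282 gene names, and all 4 passed the filter on dim signals that left 188 probes for testing. The 18 livers came from female C57BL/6 mice aged 16 weeks, with 6 mice in each of 3 groups: rosuvastatin at 20 mg/kg, atorvastatin at 40 mg/kg and vehicle, which was tap water. All groups had eaten a diet with 1% cholesterol for 1 week, received a single dose by mouth and were killed 24 h afterwards, so no mice on standard chow entered these comparisons. RNA of each mouse (Cy3) was hybridised against a pool of all samples (Cy5), and values below are log2 ratios of the mouse over that pool. The ratios were normalised within each array, so a value of 0 means the usual ratio of that array at that brightness. It is neither the exact level of the pool nor, since the pool contains every group, an untreated level.

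PPARα, the product of Ppara, is a nuclear receptor that is activated by fatty acids, binds DNA together with a retinoid X receptor (RXR), and in the liver governs genes of fatty acid oxidation and lipoprotein metabolism. PGC-1α, the product of Ppargc1a, binds to nuclear receptors including PPARα and raises their activity. It is best known in the liver for the response to fasting, when cAMP signalling through the factor CREB induces it and it turns on gluconeogenesis. UCP2 belongs to the carrier proteins of the inner mitochondrial membrane, and in lean rodent liver its transcript has been described mainly in Kupffer cells, the resident macrophages.

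In the RefSeq annotation of assembly GRCm38.p6, Ppara lies on chromosome 15 (85734910 to 85806851), Ppargc1a on chromosome 5 (51454249 to 52115853) and Ucp2 on chromosome 7 (100493337 to 100499629). Which part of a transcript each probe covers is not given in the sources used here. The RefSeq promoter windows of all 3 genes are shown because cAMP signalling is a textbook input to Ppargc1a, and the capitals mark the core of the cAMP response element, TGACG or its reverse complement CGTCA. Each window runs 5′ to 3′ on the gene's own strand, with 250 bases before the annotated start and 50 from it. For all 3 genes this start lies inside the annotated gene, which begins further upstream, with the shortest distance in Ucp2.
Ppara, chr15:85735526-85735825, plus strand: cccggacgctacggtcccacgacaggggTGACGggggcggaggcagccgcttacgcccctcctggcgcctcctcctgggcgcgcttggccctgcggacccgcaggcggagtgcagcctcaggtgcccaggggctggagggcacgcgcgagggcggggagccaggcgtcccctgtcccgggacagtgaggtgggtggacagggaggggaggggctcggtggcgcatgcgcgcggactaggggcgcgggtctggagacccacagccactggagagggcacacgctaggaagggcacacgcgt
Ppargc1a, chr5:51567676-51567975, minus strand: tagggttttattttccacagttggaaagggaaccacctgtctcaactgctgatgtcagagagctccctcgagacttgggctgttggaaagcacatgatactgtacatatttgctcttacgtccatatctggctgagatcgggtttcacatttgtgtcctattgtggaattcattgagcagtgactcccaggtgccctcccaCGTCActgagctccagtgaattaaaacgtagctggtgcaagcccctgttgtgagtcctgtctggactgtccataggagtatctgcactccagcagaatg
Ucp2, chr7:100493108-100493407, plus strand: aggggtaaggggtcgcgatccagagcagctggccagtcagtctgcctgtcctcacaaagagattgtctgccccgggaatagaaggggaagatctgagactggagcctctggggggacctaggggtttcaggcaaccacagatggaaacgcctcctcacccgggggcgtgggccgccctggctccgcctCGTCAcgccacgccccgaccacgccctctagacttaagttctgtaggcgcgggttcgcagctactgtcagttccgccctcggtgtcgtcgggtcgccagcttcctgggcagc
Each of the windows held 1 match to this core, beginning 222 bases before the start in Ppara, 49 in Ppargc1a and 62 in Ucp2, and 20.8% of the 32851 promoter windows of the same length held at least 1. The nuclear receptor core motif AGGTCA (or TGACCT) was in none of the 3, against 16.3% of all windows. The GC box GGGCGG (or CCGCCC) occurred at 2 places in Ppara and at 2 in Ucp2, at none in Ppargc1a, and in 35.7% of all windows, and none of its matches overlapped the capitals. The windows differed in base composition, with a GC content of 74.7% in Ppara, 64.3% in Ucp2 and 48.7% in Ppargc1a. These matches are letters in a window and not measured binding sites.

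The tissue label was checked against marker genes. All 6 hepatocyte markers with a probe (Alb, Apoa1, Apoe, Cyp1a2, Cyp2e1 and Cyp3a11) were above background on every array. None of the 10 macrophage and Kupffer cell markers or of the 3 stellate cell markers written for this check had a probe, so the share of those cells could not be followed. Of the endothelial markers, Icam1 was above background on 5 rosuvastatin, 2 atorvastatin and 3 vehicle arrays and Vcam1 on 1, 0 and 2. The adipocyte marker Adipoq was above background on 3, 4 and 2 arrays in the same order of groups, Retn on 0, 1 and 1, and Lep on none. For whole liver RNA, fewer cells of a type and less RNA per cell cannot be told apart. Across the arrays the median sample intensity of gene spots was 206 to 376, and 155 to 218 of the gene probes were above background. Vehicle 5 and atorvastatin 4 stood apart, with a median correlation with the other arrays of 0.25 and -0.46 across probes, and values without them are given where they matter. The number of pixels in the ring used for a spot's background also varied, and it is called the image setting here. What this number reflects is not given in the sources used here. A group of 11 arrays shared 1 such setting (4 rosuvastatin, 3 atorvastatin and 4 vehicle). Vehicle 5 is among them and atorvastatin 4 is not. Values within the 11 arrays are given beside the members' fold changes and relations.

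The 4 probes differed widely in signal over background. Ppara was above background on all 18 arrays, at sample intensities of 392 to 974 over local backgrounds of 65 to 147. Both Ppargc1a probes were also above background on every array, at 1330 to 2949 for the first and 2682 to 6263 for the second. Ucp2 was dim, at 111 to 362 over backgrounds of 69 to 136, and was above background on 3 of 6 rosuvastatin, 3 of 6 atorvastatin and 4 of 6 vehicle arrays. In the reference channel Ucp2 was above background on all 18 arrays, but that signal, which comes from the same pool each time, varied 4.91-fold between arrays, where the median over the tested probes was 2.94-fold. No spot of the 4 probes was saturated. Differences in brightness between probes are no measure of which transcript was more abundant.

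**Figure D1:**
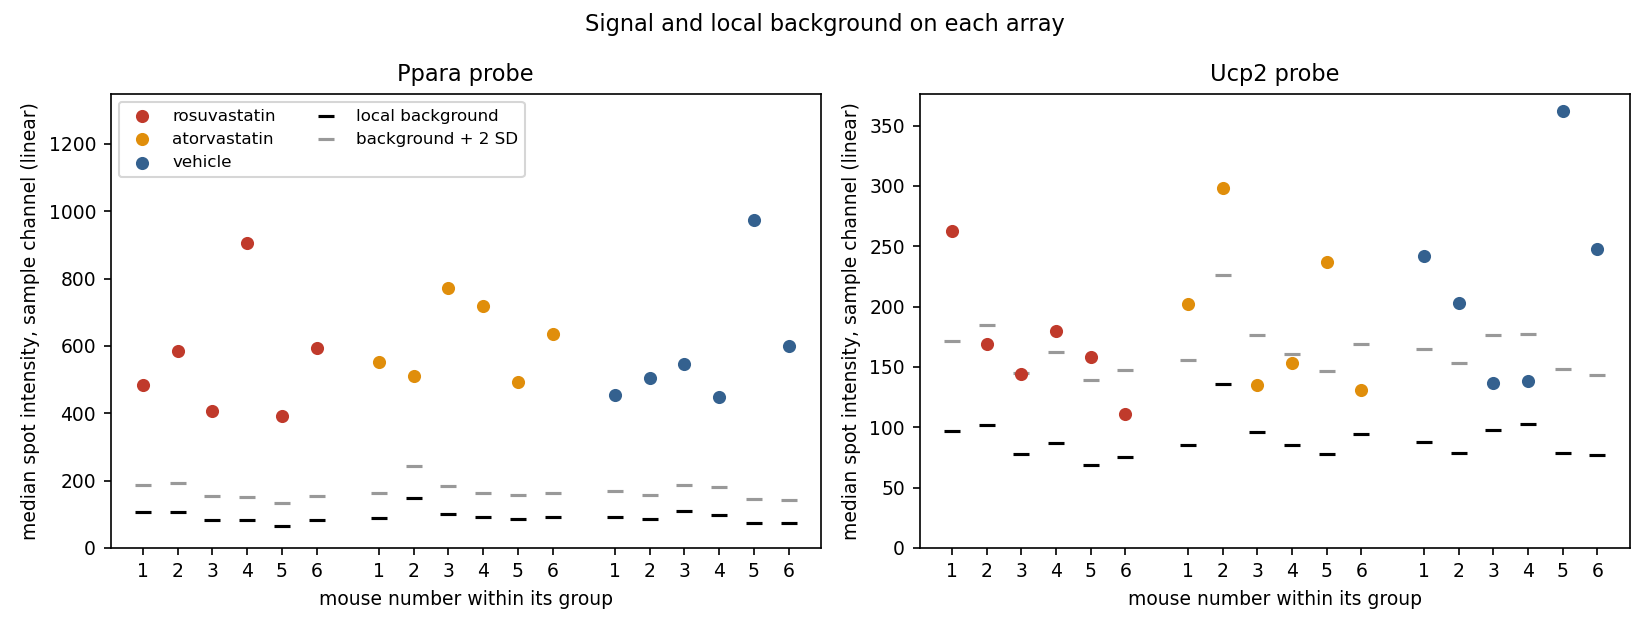
Median spot intensity in the sample channel on a linear scale (y) for each mouse of the 3 groups (x), for the Ppara probe (left) and the Ucp2 probe (right), with the local background as black dashes and that background plus 2 SDs as grey dashes. All 18 Ppara points lie well above the grey dashes, whereas 8 of the 18 Ucp2 points lie below them.

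The spread between mice was compared with the spread between the 3 spots of a probe on an array. Within a group, mice varied with an SD of 0.23 for Ppara, 0.19 and 0.17 for the first and second Ppargc1a probes and 0.32 for Ucp2, where the median SD over all tested probes was 0.20. The median SD between spots was 0.05, 0.04, 0.03 and 0.07 for the same probes, which is smaller by several times. Each mouse had its own array and labelling, so differences between mice and between arrays cannot be told apart. For Ppargc1a the spots of vehicle 1 spread with an SD of 0.43 on the first probe, from -0.12 to 0.71, and of 0.37 on the second, from -0.28 to 0.41. Those of atorvastatin 2, the highest mouse on both probes, spread from 0.40 to 0.81 on the second probe (SD 0.22).

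Setting each statin against vehicle addresses whether these 3 transcripts respond to a single dose in cholesterol-fed liver. Ppara had positive fold changes with both statins, Ucp2 had negative ones, and both Ppargc1a probes were closer to 0. No member passed the test with either statin: limma with Benjamini-Hochberg adjustment called 0 of the 4 member probes for rosuvastatin and 0 for atorvastatin, as it called 0% of all 188 probes in each comparison. At an unadjusted p under 0.05, 0 of the 4 were reached for rosuvastatin, where 6.38% of all probes were, and 1 of the 4 (Ppara) for atorvastatin, where 8.51% were. The statins were given at different doses, so their values stand side by side without a test between them. Both comparisons also share the same 6 vehicle mice, so they are not independent of each other.

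Ppara, the fatty acid receptor, had a lowest, median and highest log2 ratio of -0.34, -0.10 and 0.36 with rosuvastatin, of -0.04, 0.11 and 0.32 with atorvastatin, and of -0.51, -0.27 and 0.09 with vehicle. The means were -0.01 ± 0.28 with rosuvastatin, 0.13 ± 0.13 with atorvastatin and -0.24 ± 0.25 with vehicle (SD, n = 6 each). All 6 atorvastatin mice lay above the vehicle mean and 3 of them above every vehicle mouse, while 5 of 6 rosuvastatin mice lay above the vehicle mean and 2 above every vehicle mouse. For comparison, 5.85% of all probes with atorvastatin and 4.79% with rosuvastatin had the whole statin group above that mean. The groups overlapped in both comparisons, as they did for every tested probe. Against vehicle the log2 fold change was 0.37 for atorvastatin (SE 0.13, 95% confidence interval 0.10 to 0.64, adjusted p = 0.424 in limma), or 1.29-fold, the 4th smallest p among the 188 probes. For rosuvastatin it was 0.23 (SE 0.13, interval -0.04 to 0.50, adjusted p = 0.733), or 1.17-fold.

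The Ppara difference was smaller where the image setting was held constant. Within the 11 arrays it was 0.22 for atorvastatin (limma adjusted p = 0.996) and 0.09 for rosuvastatin (adjusted p = 0.962), and with the setting as a block it was 0.25 and 0.16. Of the other settings, 1 held no vehicle mouse and the other 2 held 1 vehicle mouse and 1 statin mouse each. In these, atorvastatin 3 lay 0.51 above vehicle 1, and rosuvastatin 3 lay 0.16 above vehicle 3. The vehicle mouse with the highest Ppara value was vehicle 5, the array that stood apart, and it is 1 of the 4 vehicle arrays among the 11. The 11 arrays were not fitted without vehicle 5, so its part in the smaller difference was not tested. Without vehicle 5 and atorvastatin 4 the log2 fold change was 0.40 for atorvastatin and 0.29 for rosuvastatin (limma adjusted p = 0.364 and adjusted p = 0.241).

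Ppargc1a, the coactivator, was read by a pair of probes. On the first probe the lowest, median and highest values were -0.09, 0.14 and 0.47 with rosuvastatin, 0.03, 0.16 and 0.54 with atorvastatin, and -0.07, 0.15 and 0.36 with vehicle. The group means were 0.17 ± 0.23, 0.22 ± 0.18 and 0.14 ± 0.14 in the same order (SD, n = 6 each), and the vehicle range lay inside that of the rosuvastatin mice. The log2 fold change was 0.03 for rosuvastatin (SE 0.11, interval -0.20 to 0.25, limma adjusted p = 0.945) and 0.08 for atorvastatin (interval -0.15 to 0.30, limma adjusted p = 0.900). The sign for rosuvastatin rested on single mice, since it was -0.03 without rosuvastatin 1, -0.01 without rosuvastatin 6 and -0.01 without vehicle 3. The value for atorvastatin was 0.01 without atorvastatin 2.

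On the second probe of Ppargc1a the values were -0.15, 0.17 and 0.35 with rosuvastatin, 0.00, 0.15 and 0.56 with atorvastatin, and -0.12, 0.01 and 0.09 with vehicle. Vehicle mice lay closer together here than on the first probe, with a mean of 0.12 ± 0.21 for rosuvastatin, 0.21 ± 0.20 for atorvastatin and 0.00 ± 0.07 for vehicle (SD, n = 6 each). Both statin groups reached above the highest vehicle mouse, with 4 of 6 rosuvastatin and 3 of 6 atorvastatin mice, while the other 2 rosuvastatin mice lay below the lowest vehicle mouse. The log2 fold change was 0.12 for rosuvastatin (SE 0.10, interval -0.10 to 0.33, limma adjusted p = 0.802) and 0.20 for atorvastatin (SE 0.10, interval -0.01 to 0.42, limma adjusted p = 0.568). Without atorvastatin 2 the value for atorvastatin was 0.13. Within the 11 arrays of 1 image setting the second probe gave 0.12 for rosuvastatin and 0.18 for atorvastatin, and the first gave 0.09 and 0.10. With both probes averaged, an alternative added after the data were seen, the Ppargc1a value was 0.07 for rosuvastatin and 0.14 for atorvastatin (limma adjusted p = 0.851 and adjusted p = 0.684).

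**Figure D2:**
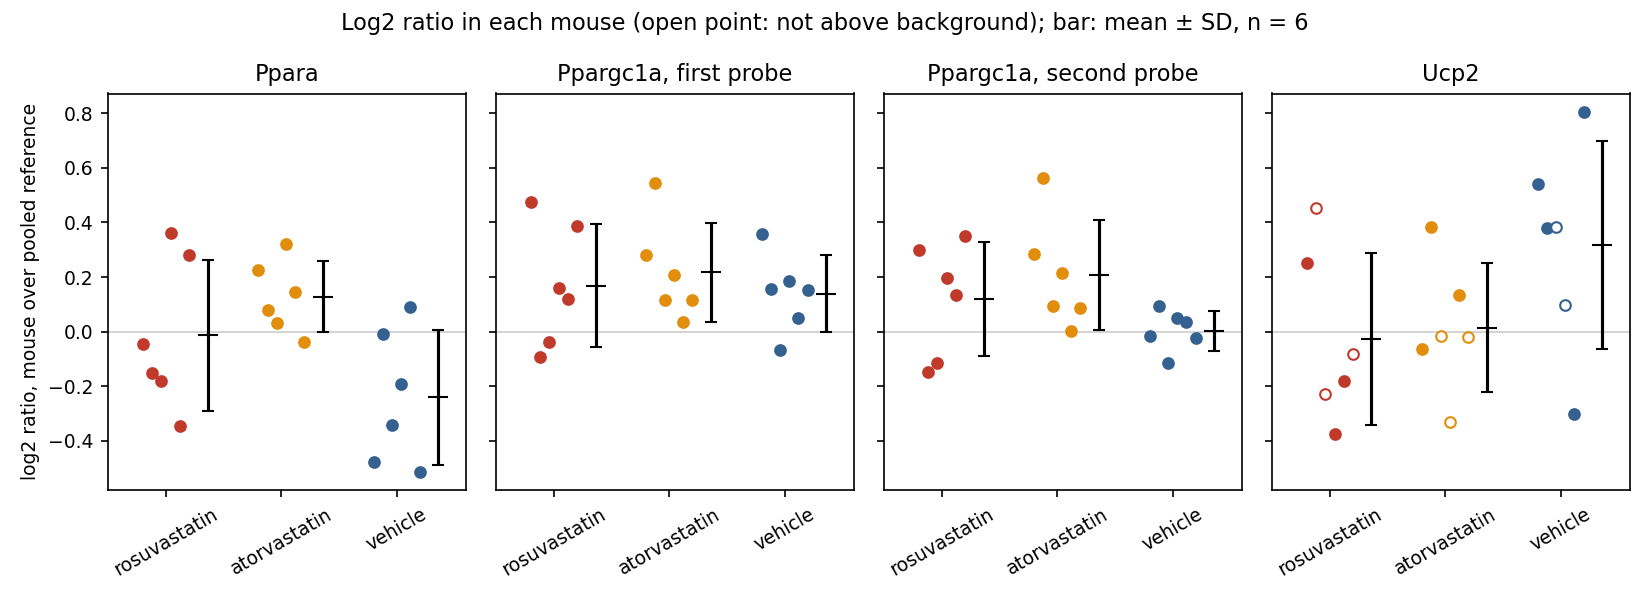
Log2 ratio of each mouse over the pooled reference (y) by group (x) for the 4 probes, with the mean ± SD of 6 mice as a black bar, and open points where the sample signal was not above background. Ppara shows the vehicle mice lowest on average (-0.24) and Ucp2 shows them highest (0.32), with overlapping groups in every panel.

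Ucp2, the mitochondrial carrier, had a lowest, median and highest value of -0.37, -0.13 and 0.45 with rosuvastatin, of -0.33, -0.02 and 0.38 with atorvastatin, and of -0.30, 0.38 and 0.81 with vehicle. The means were -0.03 ± 0.31, 0.01 ± 0.24 and 0.32 ± 0.38 in the same order (SD, n = 6 each). In each statin group 5 of 6 mice lay below the vehicle mean, but vehicle 5 itself was at -0.30, and only 1 mouse of each statin group was below it. The log2 fold change was -0.34 for rosuvastatin (SE 0.17, interval -0.71 to 0.02, limma adjusted p = 0.723), or 0.788-fold. For atorvastatin it was -0.30 (SE 0.17, interval -0.67 to 0.06, limma adjusted p = 0.593), or 0.810-fold.

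The size of the Ucp2 difference depended on which arrays and which background correction were used. Within the 11 arrays of 1 image setting it was -0.14 for rosuvastatin and -0.08 for atorvastatin. These arrays include vehicle 5, the lowest vehicle mouse at -0.30, and they were not fitted without it. In 2 of the other settings rosuvastatin 3 lay 0.61 below vehicle 3 and atorvastatin 3 lay 0.56 below vehicle 1. Without vehicle 5 and atorvastatin 4 the Ucp2 difference was -0.47 for rosuvastatin (limma adjusted p = 0.116) and -0.36 for atorvastatin. With plain background subtraction, which adds no offset to dim signals, both values were larger in size (-0.57 and -0.58). On the 10 arrays with Ucp2 above background, a choice made after the data were seen, it was -0.46 for rosuvastatin and -0.20 for atorvastatin (limma adjusted p = 0.738 and adjusted p = 0.893). The direction was negative in each of these settings, and none of the values passed the test.

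**Figure D3:**
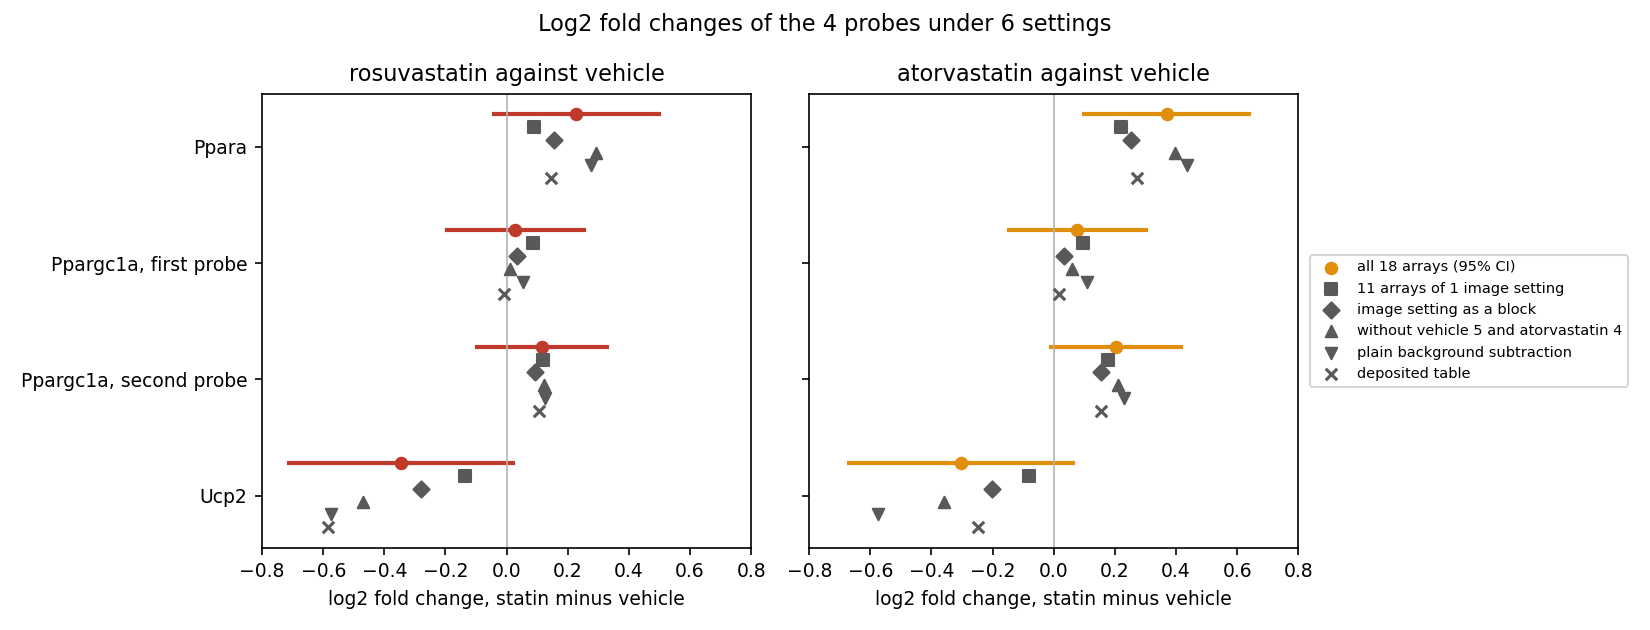
Log2 fold change, statin minus vehicle (x), for each of the 4 probes (y) with rosuvastatin (left) and atorvastatin (right), as the estimate from all 18 arrays with its 95% confidence interval and as grey markers for 5 other settings. The Ucp2 markers for rosuvastatin run from -0.58 to -0.14, and of the intervals drawn only that of Ppara with atorvastatin (0.10 to 0.64) leaves out 0. The deposited ratios hold Ucp2 on only 8 arrays (2 rosuvastatin, 2 atorvastatin and 4 vehicle).

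The genes around these members were measured on the same arrays. Of 41 liver targets of PPARα other than Ucp2 that were written for this comparison, 7 had a probe and were measured, and none was called. Their median log2 fold change was 0.02 for rosuvastatin, with 4 above 0 and 3 below, and -0.01 for atorvastatin, with 3 above and 4 below, where the median of all probes was -0.01 in both comparisons. Scd1, the desaturase that makes monounsaturated fatty acids, had values of -0.46 for rosuvastatin and -0.45 for atorvastatin (SE 0.27 for each), and Cpt1a, which brings fatty acids into mitochondria, had 0.10 and 0.16. Apoc3, an apolipoprotein that slows triglyceride clearance, was at -0.05 and -0.22.

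Of 9 partner and family genes of PPARα with a probe, 5 were measured (Rxra, Rxrb, the corepressor Ncor1, the coactivator Ncoa1 and the probe named Cbp), and none was called. Their median was 0.05 for rosuvastatin, with 4 of 5 above 0, and 0.10 for atorvastatin, with 5 of 5 above 0. Over all tested probes the median was -0.01 in both comparisons, and none of the 5 had an unadjusted p under 0.05 in limma. Rxra, the RXR form most abundant in liver, had 0.05 for rosuvastatin and 0.21 for atorvastatin (SE 0.13 for each), and Ncor1 had 0.10 with both statins. The other PPAR genes, Ppard and Pparg, were too dim to be tested, with Ppard above background on 0 and Pparg on 1 of the 18 arrays.

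Targets and partners of PGC-1α were better covered, with 15 of 17 probes measured and none called. Their median was 0.05 for rosuvastatin, with 12 above 0 and 3 below, and 0.03 for atorvastatin, with 10 above and 5 below. None of the 15 had an unadjusted p under 0.05 in limma, and the median of all tested probes was -0.01 in both comparisons. Alas1, the first enzyme of haem synthesis and a fasting-induced target of PGC-1α, had 0.30 for rosuvastatin and 0.39 for atorvastatin (SE 0.20 for each). For the gluconeogenic genes the values were 0.05 and 0.28 in Pck1 and 0.17 and -0.11 in G6pc, for rosuvastatin and then atorvastatin. Of the nuclear receptor genes, Nr1h4 (FXR) had 0.10 and -0.12, Nr3c1, the glucocorticoid receptor gene, had -0.06 and 0.01, and Rora had 0.03 and -0.10 in the same order, while the clock gene Arntl had 0.03 and -0.18. Of 11 mitochondrial and fuel genes written beside Ucp2, only Pdhb and Pklr, which stand on either side of pyruvate, had a probe. Pdhb, a subunit of pyruvate dehydrogenase, had -0.17 for rosuvastatin and -0.36 for atorvastatin (limma adjusted p = 0.424 for the second), and Pklr, the liver pyruvate kinase, had -0.29 and -0.33.

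**Figure D4:**
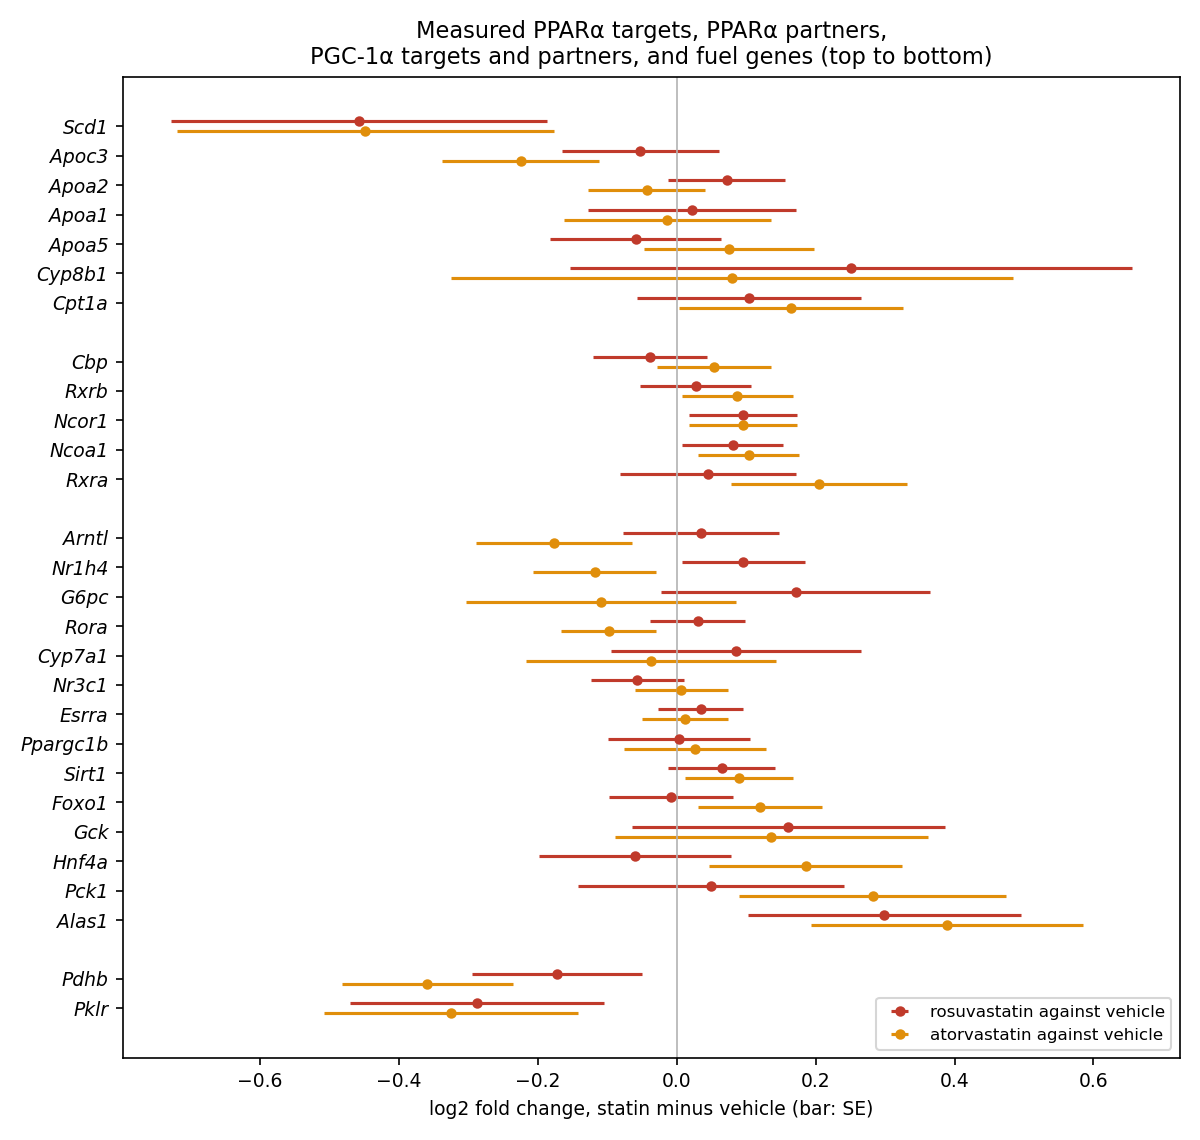
Log2 fold change, statin minus vehicle, with its SE (x) for the 28 measured genes of the 4 lists (y), in the order PPARα targets, PPARα partners, PGC-1α targets and partners, and fuel genes, with Cyp8b1 drawn once although 2 lists hold it. Most points lie within 0.30 of 0, and Scd1 (-0.46 and -0.45), with saturated reference spots on 9 arrays, lies farthest below 0.

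The members were next set against each other over the mice, after the group means were removed, in 6 pairs of probes. The pair of Ppargc1a probes moved together, with r = 0.88 and rho = 0.86 over 18 mice (permutation p = 5e-05 for r and 9e-05 for rho, adjusted 0.0003 and 0.00054). Without the 2 mice farthest out on the first probe, atorvastatin 2 and rosuvastatin 1, r was 0.82, and within the 11 arrays it was 0.95. By group r was 0.94 with rosuvastatin, 0.999 with atorvastatin and 0.40 with vehicle. The spots of both probes lie in the same blocks of the array (1, 3 and 5). How much this shared position adds to r was not tested. Ppara and Ucp2 ran in opposite directions, with r = -0.57 (permutation p = 0.0316, adjusted 0.0947) and rho = -0.51 (permutation p = 0.0603, adjusted 0.121). That relation failed the adjustment, fell to an r of -0.35 without rosuvastatin 4 and vehicle 5, and was -0.46 within the 11 arrays. Those 2 mice were the farthest out in Ppara, and Ucp2 was not used to pick them. Ppara and the second Ppargc1a probe had r = 0.41 and rho = 0.56 (permutation p = 0.107 and 0.0265, adjusted 0.214 and 0.0796; 0.42 without the same 2 mice and 0.35 within the 11 arrays), and the remaining 3 pairs had an r between -0.02 and 0.22.

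The probes whose log2 ratio over the 18 arrays was most and least like that of each member are given as a description, since all points share the pooled reference and the normalisation of their array. Ucp2 was most like Scd1 (r = 0.96), followed by the probe named Acas2 (0.84), and least like Cpt1a (-0.81), the HDL receptor gene Scarb1 (-0.76) and Nfkbia (-0.75). The likeness of Ucp2 and Scd1 was 0.95 after group means were removed, 0.95 without vehicle 5 and atorvastatin 4, 0.95 within the 11 arrays, 0.97 on the 10 arrays with Ucp2 above background and 0.96 on the 9 arrays where Scd1 had no saturated reference spot. Both were lowest in atorvastatin 4 and rosuvastatin 4 and highest in vehicle 6, where Scd1 reached 1.04. With other normalisations of the arrays the r of Ucp2 and Scd1 was between 0.83 and 0.89, and in the deposited ratios, which hold both on only 5 arrays, it was 0.99. The negative relation with Cpt1a was less stable, at -0.76 within the 11 arrays, -0.43 when arrays were shifted on spike-in spots and -0.05 in the deposited ratios, over 8 arrays.

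Ppara was most like Crp, which encodes an acute phase protein (r = 0.74), Cpt1a (0.73) and the clock repressor gene Nr1d2 (0.67). The r with Cpt1a was between 0.72 and 0.82 under the other settings tried, and 0.65 to 0.81 when 1 mouse at a time was left out. Ppara was least like Pdhb (-0.82), a Gapdh probe (-0.82) and a human TUBB2B probe (-0.78). Another tested Gapdh probe was not among the least like. The r with Gapdh and TUBB2B was not computed under other normalisations. The r with Pdhb was -0.87 within the 11 arrays, 0.11 when arrays were shifted on spike-in spots and -0.05 in the deposited ratios, so its sign was not settled by these arrays.

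For Ppargc1a the first and second probes were close to each other (r = 0.85) and both were most like Pon2, a paraoxonase gene (0.88 for the first and 0.85 for the second, and 0.87 for the second within the 11 arrays). Next came the bile canalicular exporter gene Abcc2 (0.77) for the first probe and Adipoq (0.72), above background on 9 of 18 arrays, for the second. The first probe was least like a human RPL19 probe (-0.64), Cyp2b9 (-0.55) and Mapk8 (-0.52), and the second least like Ppp1r3c (-0.59), Insig2 (-0.56) and Pdhb (-0.54). Insig2 encodes a protein that holds back sterol-regulated transcription, and Ppp1r3c one that directs a phosphatase to glycogen.

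**Figure D5:**
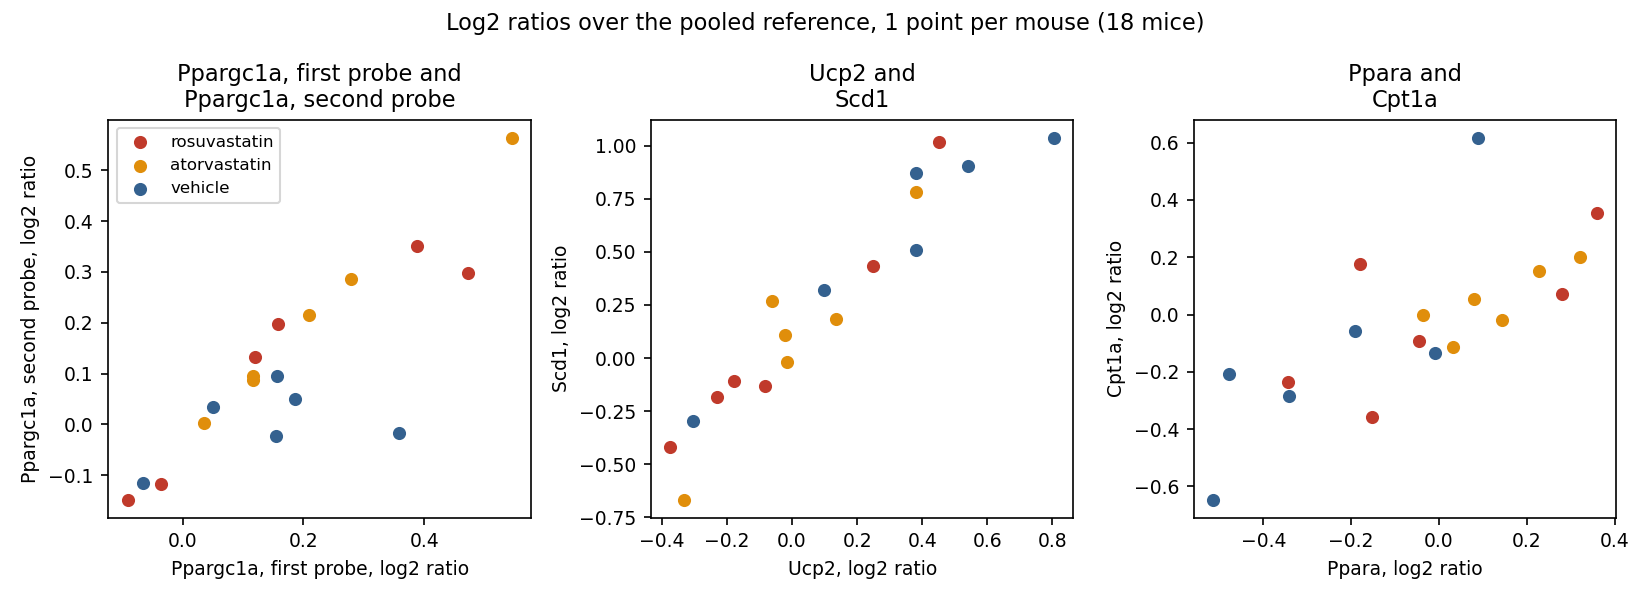
Log2 ratios over the pooled reference for 3 pairs of probes, 1 point for each of 18 mice coloured by group: the first Ppargc1a probe (x) and the second (y), Ucp2 (x) and Scd1 (y), and Ppara (x) and Cpt1a (y). The r over the mice is 0.85, 0.96 and 0.73 from left to right, and all 3 groups lie along the same band in the middle panel.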

How the data were processed

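Liver RNA of 18 mice was measured on 2-colour arrays. The deposited array files hold median spot and local background intensity values in both channels, on a linear scale with no background removed; image software is not given in the sources used here. A second file deposited by the authors gives log2 ratios per probe and array, whose scaling and centring are not given (column medians -0.32 to 0.564; it ran as sample over reference, r 0.809 to 0.979 with the scanner ratios); it served as an alternative. The dyes were never swapped.

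Values were computed with limma 3.58.1 (R 4.3.3, statmod 1.5.0). Normexp with an offset of 50 corrected both channels, log2 ratios were normalised by loess within arrays (span 0.3, control spots at weight 0), and spots of a probe were averaged. The filter kept probes that passed local background plus 2 SDs in at least 6 of the 18 sample channels. One limma fit of all arrays gave each statin against vehicle (two-sided, Benjamini-Hochberg over 188 probes, threshold 0.05). Correlations between members used 100000 permutations within groups. Array names were matched to RefSeq symbols. The rule for named genes was the members, up to 4 genes with the smallest p in each list and comparison, and the 3 most and 3 least correlated probes of each member. One probe that this rule names is not reported here. Members, lists and tests were chosen with earlier results of these data known. Scripts were tested on simulated data. Nothing in the sources says more of the replicates than that they are separate mice, and the number of arrays limits precision.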

Additional observations from a re-analysis of the deposited data

Results flagged for a closer look

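No group of 6 mice held a value that met Dixon's test for a single outlying sample, among the 12 groups formed by 4 probes and 3 treatments, at a level where chance gives about 1 in 20.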

How the results depend on the processing

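The calls did not depend on most choices. Rosuvastatin against vehicle had 0 probes called under all 32 alternatives, and atorvastatin against vehicle under 31 of 32; the exception was the fit with replicate number as a block, which called 2 probes, neither of them a member (smallest limma adjusted p 0.0467; the cause was not tested). Whether the numbers pair the mice is not stated. Same-numbered mice had correlations of -0.603 to 0.613, and 10 of 18 pairs were over 0.1. They were not set against differently numbered mice, so these values cannot decide it. With replicate number as a block the limma adjusted p was 0.384 for atorvastatin and 0.685 for rosuvastatin in Ppara, and 0.476 and 0.471 in Ucp2. Probes at an unadjusted p under 0.05 numbered between 4 and 29 for rosuvastatin and between 0 and 31 for atorvastatin. The first Ppargc1a probe with rosuvastatin reversed to -0.0097 in the deposited ratios. Leaving out 1 mouse at a time gave it -0.032 to 0.081, and 0.01 to 0.12 with atorvastatin; the second probe gave 0.07 to 0.17 with rosuvastatin and 0.13 to 0.25 with atorvastatin. The same step gave Ppara 0.15 to 0.29 with rosuvastatin and 0.31 to 0.44 with atorvastatin, and Ucp2 -0.47 to -0.25 with rosuvastatin and -0.43 to -0.21 with atorvastatin, where the values nearest to and farthest from 0 for Ucp2 were without vehicle 6 and without vehicle 5. All alternatives that gave a value kept the direction of Ppara, Ucp2 and the second Ppargc1a probe. For Ucp2 the deposited ratios rest on only 8 arrays (2 rosuvastatin, 2 atorvastatin and 4 vehicle). The r of Ppara and Pdhb, computed under alternatives added after the data were seen, reversed to 0.11 with the spike-in shift, and the cause was not tested. The filter for probes above background on all arrays left no Ucp2 value. Signal over background limits Ucp2 alone among the members.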
